A study of Mus musculus with 11 samples.

Results

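RNA from cultures grown for 4 days in an oligodendrocyte medium was compared with RNA from cultures grown for the same 4 days in an astrocyte medium. Both kinds of culture, and the 2 other groups of the study, began as neural stem cells from the frontal cortex of C57BL/6J mouse embryos (E14.5), expanded in a proliferation medium and plated on coated flasks. The group named Oligodendrocyte (2 libraries) was given the thyroid hormone T3 at 30 ng/mL in Neurobasal medium, along with B-27 supplement at 2% and GlutaMAX at 2 mM. The group named Astrocyte (3 libraries) received Dulbecco's Modified Eagle Medium (DMEM) with 1% N-2 supplement, 2 mM GlutaMAX and 1% fetal bovine serum. The group named Neuron (3 libraries, day 4) received the same Neurobasal, B-27 and GlutaMAX without added T3, and the group named NSC (3 libraries) was taken at day 0. The basal medium, the supplement, serum and added T3 all changed together between the Oligodendrocyte and Astrocyte groups, so their parts in any difference cannot be told apart in this pair. Group names here denote media, and a dish may have held several cell types.

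All genes with at least 1 CPM (read counts scaled to a common library total) in at least 2 of the 5 libraries were taken as members. They were 12960 of the 13342 genes tested over all 11 libraries and of the 37991 genes listed. The 5 libraries had an estimated 59.2 to 66.2 M reads behind their CPM, and 12621 to 12712 genes reached 1 CPM in each. Mitochondrially encoded RNA made up 7.64% and 8.36% of the listed CPM in the Oligodendrocyte libraries and 8.28% to 9.91% in the Astrocyte libraries (exact permutation test, two-sided p = 0.3, where 0.1 is the smallest p that 2 against 3 libraries allow). Spread within a group was set against the counting variance expected from the estimated reads, for genes with a group mean from 10 to under 1000 CPM. For the median gene the variance was 3.85 times (Oligodendrocyte, 9224 genes) and 7.88 times (Astrocyte, 9175 genes) the counting variance. These medians rest on 2 and 3 libraries per gene and depend on that number, so they do not compare the spread of the 2 groups. The submitters call the replicates biological, but the labels do not say whether they came from separate cultures or animals, so the p-values measure the spread between these libraries only.

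Thyroid hormone enters cells through membrane transporters, is activated or broken down by deiodinases, and acts through nuclear receptors that switch target genes on or off. In the brain it is known as a timing signal for oligodendrocyte precursors to leave the cell cycle and make myelin, the lipid-rich sheath of axons. Serum brings growth factors and cytokines to a culture and is a classic means of turning cortical progenitors toward astrocytes, whose intermediate filament protein is GFAP. B-27 is a defined neuronal supplement that itself holds hormones, retinoid and antioxidants, and N-2 is a leaner one built on insulin and transferrin. Bulk RNA does not separate fewer cells of a type from less RNA per cell, and no statement here does so.

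Many genes differed between the media, mostly by small amounts. At an adjusted p under 0.05, 6880 of 12960 members were called (53.1%), 3776 of them higher in Oligodendrocyte (29.1%) and 3104 lower (24%). The median size of a called log2 fold change was 0.48. A change of at least 2-fold, on the scale of log2(CPM + 1) used for every fold change here, was found for 1060 called genes (8.18%), with 605 higher (4.67%) and 455 lower (3.51%). Changes of at least 4-fold were fewer, with 105 genes higher and 52 lower. At 16-fold or more 3 genes were higher and 3 lower. The libraries of the 2 groups did not overlap for 9389 members (72.4%), 5197 of them higher in Oligodendrocyte (40.1%) and 4192 lower (32.3%), among them 6860 of the called genes. The other 20 called genes overlapped.

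**Figure D1:**
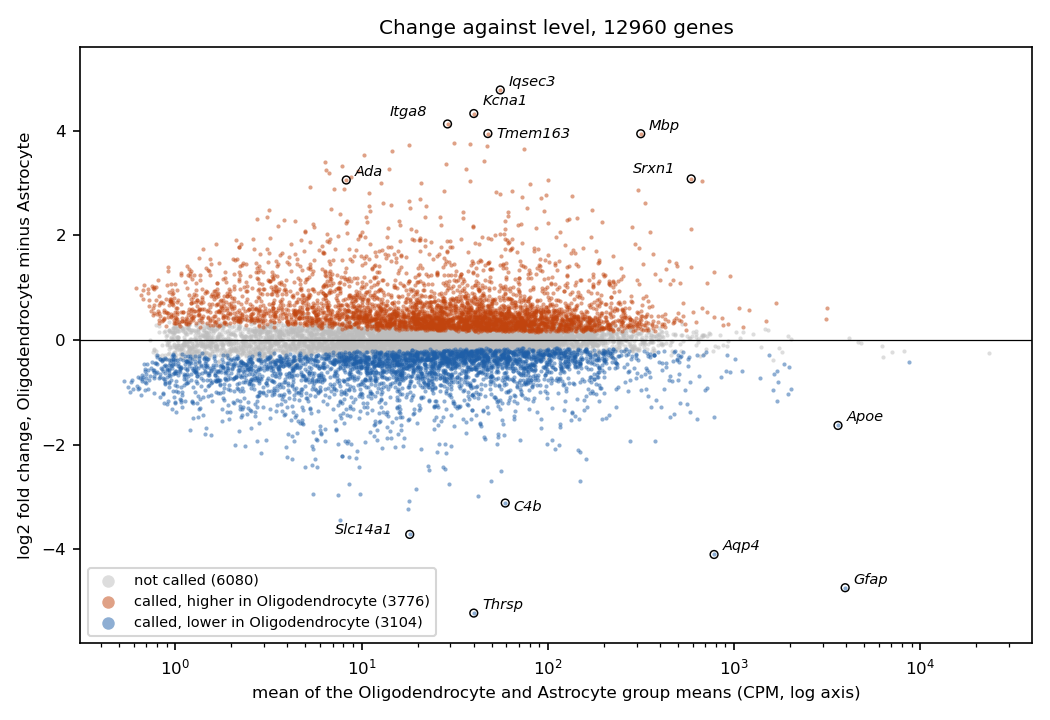
Change against level for the 12960 genes. The x axis is the mean of the Oligodendrocyte and Astrocyte group means in CPM (log axis) and the y axis the log2 fold change of Oligodendrocyte over Astrocyte. Grey points were not called, orange points were called higher in Oligodendrocyte (3776) and blue points lower (3104). Iqsec3, at 4.78, stands at the top and Thrsp, at -5.22, at the bottom.

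Iqsec3, Kcna1 and Itga8 had the largest rises in the oligodendrocyte medium. Iqsec3, an exchange factor for Arf GTPases known from inhibitory synapses (mm9, chromosome 6, 121322948 to 121423696, minus strand), had 102.11 and 114.36 CPM in the Oligodendrocyte libraries against 3.34, 2.93 and 2.68 in the Astrocyte libraries. Its log2 fold change was 4.78 ± 0.14 (SE; adjusted p = 7.1e-11). Kcna1, a voltage-gated potassium channel of axons (mm9, chromosome 6, 126586481 to 126595819, minus strand), had 74.68 and 79.78 against 3.97, 2.48 and 2.41 CPM. It rose by 4.33 ± 0.17 on the log2 scale (SE), with an adjusted p of 4.9e-10. Both genes were as low in the neuron medium as in the astrocyte medium or lower. The Neuron means were 1.59 ± 0.508 CPM for Iqsec3 and 0.277 ± 0.185 CPM for Kcna1 (SD, n = 3).

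The rest of the 12 highest genes had log2 fold changes from 3.53 to 4.13. The 12 highest and 12 lowest genes were chosen to have no overlap between the groups, so that is no result. Itga8, an integrin subunit, had 62.6 and 48.82 CPM against 2.04 to 2.33 in Astrocyte. Hcn2, a pacemaker channel opened by hyperpolarization, had 62.79 and 82.27 CPM against 3.98 to 4.68. Ppp2r2c, a regulatory subunit of protein phosphatase 2A, had 55.89 and 62.34 CPM against 2.65 to 4.56. These 3 genes were at 1.45 to 3.88 CPM on average in Neuron, far below Oligodendrocyte. Kndc1, a brain exchange factor, D430041D05Rik and the cationic amino acid transporter family member Slc7a14 were also far lower in Neuron than in Oligodendrocyte, with Neuron means of 1.59, 14.4 and 2.14 CPM against Oligodendrocyte means above 27 CPM in each. The other 4 of the 12 lay above Astrocyte in Neuron as well. Mbp and Mobp encode myelin proteins, Tmem163 a zinc transporter and Slc24a2 a sodium, calcium and potassium exchanger. Their Neuron means were 495 ± 34.4, 7.13 ± 0.0608, 25.4 ± 0.994 and 10.4 ± 1.4 CPM (SD, n = 3).

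Ada, adenosine deaminase, which turns adenosine into inosine (mm9, chromosome 2, 163552320 to 163575975, minus strand), had 15.16 and 15.98 CPM in Oligodendrocyte against 1.02, 0.95 and 1 in Astrocyte. Its log2 fold change was 3.06 ± 0.10 (SE; adjusted p = 1.9e-10). Neuron cultures had 2.3 ± 0.375 CPM (SD, n = 3), and Oligodendrocyte was higher than Neuron by 2.33 (adjusted p = 7.7e-10).

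Thrsp, Gfap and Aqp4 had the largest falls in the oligodendrocyte medium. Thrsp, which encodes the lipogenic nuclear protein Spot 14 (mm9, chromosome 7, 104561448 to 104566240, minus strand), had 1.06 and 1.23 CPM in Oligodendrocyte against 83.06, 75.76 and 78.17 in Astrocyte. Its log2 fold change was -5.22 ± 0.13 (SE; adjusted p = 1.6e-11). Gfap, the intermediate filament of astrocytes (mm9, chromosome 11, 102748650 to 102762226, minus strand), had 299.15 and 269.65 CPM against 8706.89, 7156.52 and 7029.92. Its log2 fold change was -4.74 ± 0.11 (SE), with an adjusted p of 1.6e-11. The groups lay far apart for both genes. Neuron lay between them, with 45.8 ± 7.32 CPM for Thrsp and 2647 ± 190 CPM for Gfap (SD, n = 3), and Gfap in Oligodendrocyte was still above the NSC mean of 2.22 ± 0.365 CPM (SD, n = 3).

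The other genes of the 12 lowest had log2 fold changes from -4.10 to -2.95. Aqp4, the water channel of astrocyte endfeet, had 93.63 and 77.57 CPM against 1443.51 to 1550.17 in Astrocyte. Slc14a1, a urea transporter, had 1.48 and 1.94 CPM against 31.51 to 36.85. The groups of both genes were more than 10-fold apart. C3 and C4b are complement components, Serpina3n is an acute-phase protease inhibitor and Fgl2 a fibrinogen-like protein, and C4b, Serpina3n and Fgl2 had log2 fold changes of -3.12, -3.08 and -2.95. C4b is one of a pair of near-identical neighbouring genes, so its reads may be shared with its copy. Ripply1, a repressor known from somite formation, Lect1, a secreted cartilage protein now named Cnmd, Ndrg1, a stress-response gene also needed in myelinating glia, and the transglutaminase Tgm1 completed the set, with Oligodendrocyte means of 0.44, 2.58, 0.92 and 0.49 CPM and Astrocyte means of 14.8, 32.9, 14.1 and 10.4 CPM. C4b and Ndrg1 were higher still in Neuron, at 258 ± 14.9 and 23.5 ± 7.22 CPM (SD, n = 3).

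**Figure D2:**
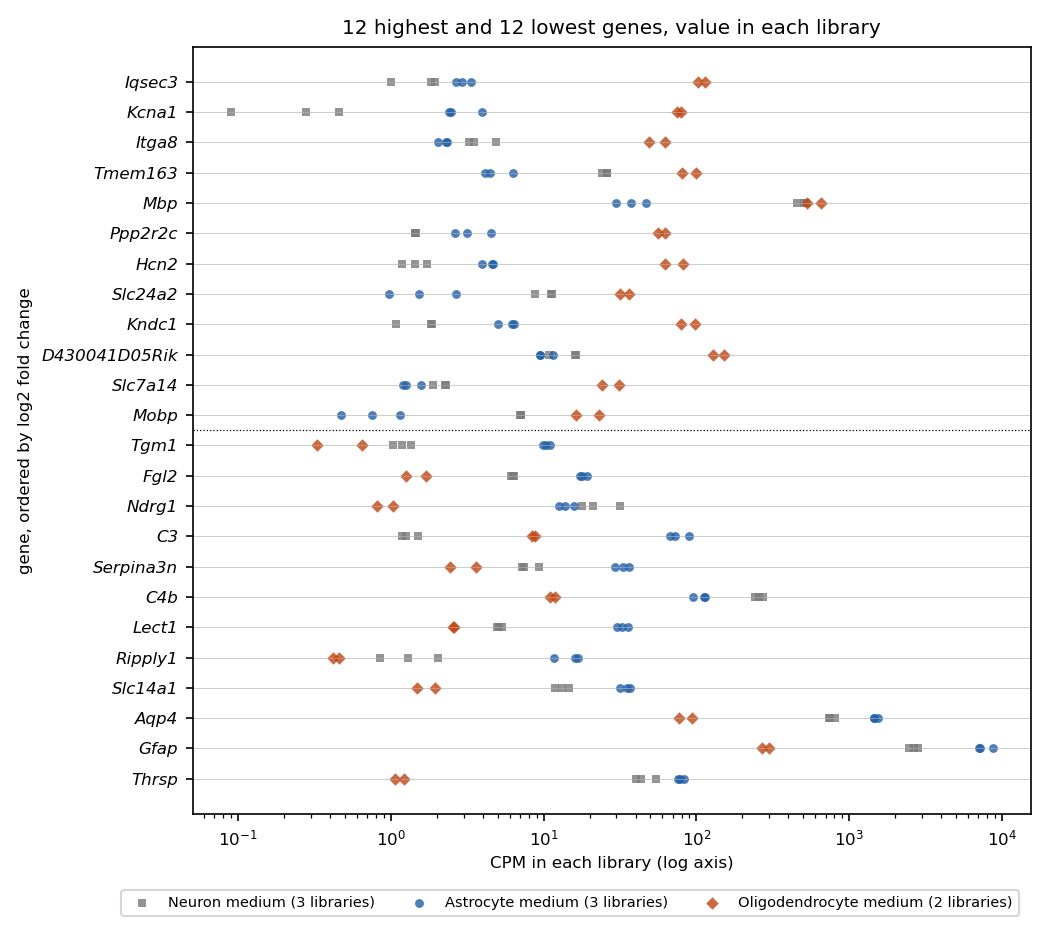
CPM of the 12 highest and 12 lowest genes in each library (log axis), 1 row per gene in the order of the log2 fold change, with the dotted line between the sets. Orange diamonds are the 2 Oligodendrocyte libraries, blue circles the 3 Astrocyte libraries and grey squares the 3 Neuron libraries. Neuron lies below Astrocyte for Hcn2 and near Oligodendrocyte for Mbp.

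The stretches of 250 bases before the start of Iqsec3, Thrsp and Gfap are shown because these genes lead the comparison, and that of Socs3, a cytokine response gene described below, because it holds a STAT site. All 4 were picked after their values and matches had been seen. They come from RefSeq on GRCm38.p6, a later build than that of the expression table, and read 5′ to 3′ on the minus strand, on which all 4 genes lie. Capitals mark 2 motifs searched on both strands, the thyroid hormone receptor core hexamer AGGTCA and the STAT site TTCNNNGAA, which do not overlap here.
Iqsec3, chr6:121473679-121473928: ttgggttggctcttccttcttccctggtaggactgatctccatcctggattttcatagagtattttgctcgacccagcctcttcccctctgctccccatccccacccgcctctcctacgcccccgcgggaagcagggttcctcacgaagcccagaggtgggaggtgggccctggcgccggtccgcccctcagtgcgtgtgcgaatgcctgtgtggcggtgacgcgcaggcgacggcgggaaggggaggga
Thrsp, chr7:97417551-97417800: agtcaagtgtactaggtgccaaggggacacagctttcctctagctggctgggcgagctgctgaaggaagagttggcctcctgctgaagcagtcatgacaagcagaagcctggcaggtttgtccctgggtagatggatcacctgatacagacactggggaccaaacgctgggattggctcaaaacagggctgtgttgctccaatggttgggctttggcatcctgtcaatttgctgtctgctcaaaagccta
Gfap, chr11:102897201-102897450: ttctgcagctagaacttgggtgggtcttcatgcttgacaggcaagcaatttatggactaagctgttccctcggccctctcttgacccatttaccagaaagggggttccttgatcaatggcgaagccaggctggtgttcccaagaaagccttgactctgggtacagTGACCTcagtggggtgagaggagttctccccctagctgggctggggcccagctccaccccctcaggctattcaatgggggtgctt
Socs3, chr11:117969367-117969616: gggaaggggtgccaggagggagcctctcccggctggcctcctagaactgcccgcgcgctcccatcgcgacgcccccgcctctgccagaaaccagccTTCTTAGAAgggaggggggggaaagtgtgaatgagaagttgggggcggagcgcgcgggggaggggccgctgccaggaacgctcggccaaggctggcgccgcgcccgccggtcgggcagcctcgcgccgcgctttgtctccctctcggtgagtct

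The Gfap window held the hexamer, in reverse, from 85 to 80 bases before the start. The Socs3 window held the STAT site from 154 to 146 bases before the start. The windows of Iqsec3 and Thrsp held neither, which says only that these letters are not in them. The hexamer occurred in 14.02% of the 32851 windows in the table. Counted by gene, with any of its windows, it occurred in 12.46% of the 9167 members that had a window. It occurred in 1 of the 10 genes with a window among the 12 highest (Hcn2) and in 3 of the 7 among the 12 lowest (C3, Gfap and Tgm1). The STAT site occurred in 7.02% of all windows. By gene it occurred in 7.15% of members with a window, in none of the 10 highest and in 2 of the 7 lowest (Fgl2 and Tgm1). A match to so short a motif is a description of the sequence only.

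Myelin genes were higher in the oligodendrocyte medium. Of 18 members on a list of myelin and mature oligodendrocyte genes, 16 were higher and 2 lower. The median log2 fold change was 2.23 against 0.04 over all 12960 members. Over all members 29.1% were higher and 24% lower, the shares to set beside each list count that follows. Mbp, which compacts the sheath, had 532.79 and 654.74 CPM against 46.99, 37.35 and 30, a log2 fold change of 3.94 ± 0.16 (SE). Mbp was not called against Neuron, with a log2 fold change of 0.26 for Oligodendrocyte over Neuron (adjusted p = 0.17).

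Mog, a surface protein of the outermost myelin layer made late in maturation, differed from that pattern. It had 9.42 and 9.77 CPM in Oligodendrocyte, 1.71, 1.44 and 0.81 in Astrocyte and 0.527 ± 0.206 in Neuron (SD, n = 3), with log2 fold changes of 2.21 over Astrocyte and 2.80 over Neuron (adjusted p = 7.3e-08 and 4.0e-09). Gm98, the older symbol of the myelin regulatory factor gene Myrf, was higher by 3.05 over Astrocyte and by 0.82 over Neuron. Over the whole myelin list, 16 genes were lower in Astrocyte than in Neuron and 2 higher, while in Oligodendrocyte 7 were higher than in Neuron, 6 lower and 5 not called. Over all members, 44.8% were higher and 23.2% lower in Oligodendrocyte than in Neuron, and 41.3% were higher and 21.5% lower in Astrocyte than in Neuron. The Oligodendrocyte split of the myelin list was near that of all genes. These shares over Neuron come from the main scaling only, and their dependence on scaling was not tested. The 2 members lower in Oligodendrocyte than in Astrocyte were Ermn, a cytoskeletal protein of myelinating oligodendrocytes, and Aspa, an enzyme that releases acetate from N-acetylaspartate, at log2 fold changes of -0.57 and -0.89. They fall outside the naming rule and were chosen after their values were seen.

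Genes of oligodendrocyte precursors were higher in part. Of 14 members, 8 were higher, 1 lower and 5 not called, with a median of 0.76, where 29.1% of all members were higher. The member that was lower, Nkx2-2, at -0.40, was chosen after its value was seen. Olig2, a transcription factor of the oligodendrocyte lineage, had 223.56 and 237.18 CPM against 110.46, 97.96 and 104.52, a difference of 1.14 ± 0.09 on the log2 scale (SE; adjusted p = 2.6e-07). Gpr17, a receptor of precursors committed to differentiate, and Sox8 were higher by 1.06 and 1.07 and Olig1 and Cspg4 by 0.80 and 0.90. Pdgfra, the growth factor receptor of dividing precursors, was not called, with 66.17 and 66.16 CPM against 70.15 to 85.85 (log2 fold change -0.21 ± 0.12, SE). Against Neuron, 11 of the 14 were lower in Oligodendrocyte and 1 higher, and all 14 were lower in Astrocyte, where 23.2% and 21.5% of all members were lower.

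Astrocyte genes were lower in the oligodendrocyte medium, with exceptions. Of 18 members on the astrocyte identity list, 13 were lower, 4 higher and 1 not called, with a median of -0.65. Of all members 24% were lower. Beside Gfap and Aqp4, Aldoc, the brain form of aldolase, was lower by 1.51 and Nfia, a factor that opens the astrocyte programme, fell by 1.16 on the log2 scale. Aldh1l1, a folate enzyme used as an astrocyte marker, had 152.44 and 160.31 CPM against 210.97 to 248.21, a log2 fold change of -0.57 ± 0.08 (SE). The 4 members that were higher were the glutamate transporter Slc1a2, glutamine synthetase Glul, the potassium channel Kcnj10 and the growth factor receptor Fgfr3, at 0.39, 0.71, 0.43 and 0.97. Slc1a3, the other main glutamate transporter of astrocytes, was lower by 0.65. These 5 genes were chosen after their values were seen. Over Neuron, 7 of the 18 members were higher in Astrocyte, 9 lower and 2 not called (median -0.15). In Oligodendrocyte 4 were higher than in Neuron, 13 lower and 1 not called (median -1.06). Of all members 41.3% were higher and 21.5% lower in Astrocyte than in Neuron, and 44.8% and 23.2% in Oligodendrocyte. For 11 of the 17 called members the Neuron mean was nearer to Astrocyte.

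Genes of reactive astrocytes and complement were lower. Of 20 members, 18 were lower, none was higher and 2 were not called, against 24% of all members lower, and the median was -1.39. Osmr, a receptor subunit for oncostatin M, had 18.44 and 19.74 CPM against 75.3, 71.69 and 67.37, a log2 fold change of -1.85 ± 0.08 (SE). C3 was lower in Neuron than in Oligodendrocyte. It was 66.8 to 88.97 CPM in Astrocyte, 8.86 and 8.35 in Oligodendrocyte and 1.32 ± 0.163 in Neuron (SD, n = 3). Lcn2, a reactive astrocyte marker, did not reach the minimum for a member, with 0.81 and 1.2 CPM against 0.29 to 0.38. Against Neuron, 16 of the 20 were higher in Astrocyte and 2 lower, while Oligodendrocyte had 7 higher, 8 lower and 5 not called, where 41.3% of all members were higher in Astrocyte and 44.8% in Oligodendrocyte.

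Genes of cytokine signalling through JAK and STAT proteins and of the interferon response were lower along with them. Of 15 members, 11 were lower, 1 was higher and 3 were not called, with a median of -0.59, where 24% of all members were lower. Socs3, the feedback inhibitor of this pathway, had 4.58 and 6.12 CPM against 19.68, 16.85 and 18.15, a difference of -1.61 ± 0.13 on the log2 scale (SE; adjusted p = 2.6e-07). Il6st, the shared receptor subunit of the interleukin 6 family, had 213.32 and 217.46 CPM against 403.69 to 435.68, a log2 fold change of -0.96. The groups did not overlap for either gene, as for 72.4% of all members. Irf9 and Ifit3, an interferon-response factor and an interferon-induced gene, were lower by 0.82 and 1.15, whereas Stat2 was not called (-0.24).

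Targets of BMP and TGF-beta signalling divided, with 5 of 12 higher, 5 lower and 2 not called. The largest rises were in Tgfbi, a secreted matrix protein induced by TGF-beta, Ltbp1, which stores TGF-beta in the matrix, and Bmp4, a BMP ligand, at 1.78, 1.52 and 1.24. These 3 were chosen after their values were seen. They fall outside the naming rule, which needs a group mean of at least 10 CPM for the largest members of a list. Id2, Id3 and Id4, inhibitors of neural differentiation factors that BMP induces, were lower by 1.01, 0.65 and 0.66, and Id1 was not called (-0.18). Smad9, a transducer of BMP, was lower by 1.38, and Skil, a repressor of TGF-beta signalling, was higher by 0.82.

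**Figure D3:**
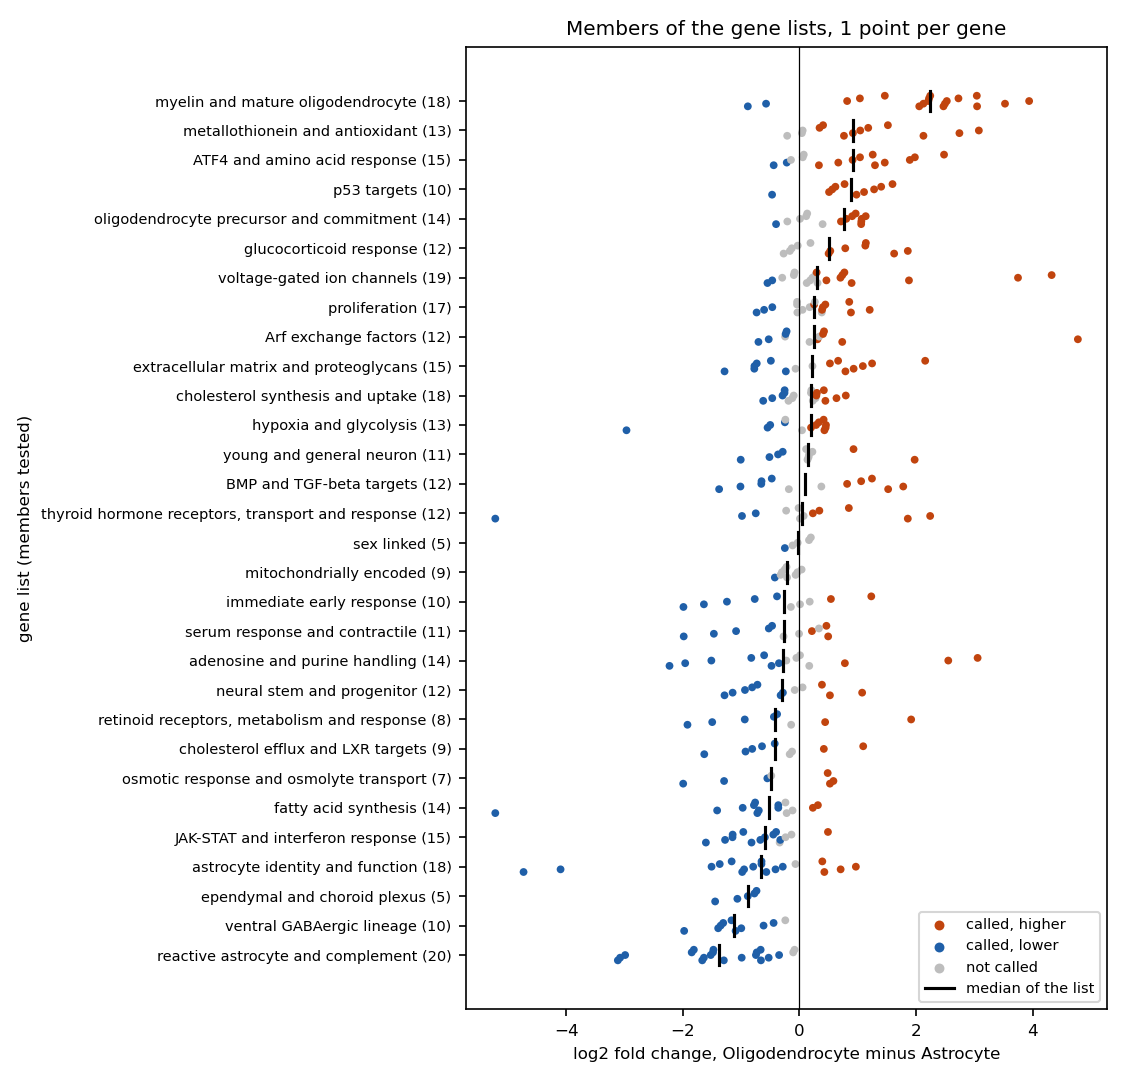
Log2 fold changes of Oligodendrocyte over Astrocyte for the members of each gene list with at least 5 members, 1 point per gene, ordered by the list's median (black bar). Orange points were called higher, blue points lower, and grey points were not called. Myelin genes are at the top with a median of 2.23 and reactive astrocyte and complement genes at the bottom with -1.39.

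The thyroid hormone genes did not move together. Of 12 members of the receptor, transport and response list, 5 were higher, 3 lower and 4 not called, with a median of 0.04 (4 higher and 4 lower, median -0.01, under quantile normalization). Hr, a nuclear receptor corepressor induced by thyroid hormone in brain, had 176.83 and 157.45 CPM against 40.64, 32.66 and 30.81, a difference of 2.24 ± 0.13 on the log2 scale (SE; adjusted p = 1.6e-08). Klf9, a transcription factor and another known target in brain, had 90.5 and 102.23 CPM against 29.3, 25.14 and 23.26, a difference of 1.86 ± 0.11 on the log2 scale (SE; adjusted p = 2.0e-08). Both were higher without overlap, as were 40.1% of all members, and over Neuron Hr and Klf9 were higher by 4.08 and 1.72. Hr had 9.02 ± 1.34 CPM in Neuron (SD, n = 3).

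Thrsp, a thyroid hormone target in liver, went the other way, as given above. Dio2, the deiodinase that activates thyroid hormone in astrocytes, had 22.03 and 20.39 CPM against 38.31, 38.01 and 32.95, a log2 fold change of -0.75 ± 0.08 (SE). Of the receptors, Thra had 371.12 and 383.34 CPM against 292.74 to 302.85 and was higher by 0.34 (adjusted p = 0.00052), and Thrb was not called, with 25.81 and 23.83 CPM against 23.09 to 26.35.

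**Figure D4:**
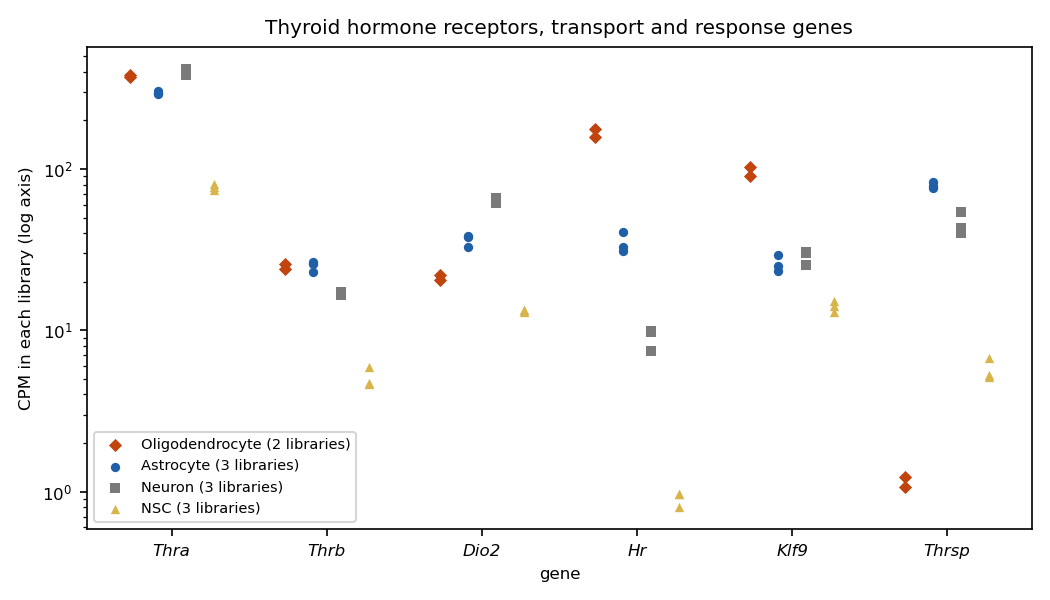
CPM in each library (log axis) of 6 genes from the thyroid hormone list. Orange diamonds are Oligodendrocyte, blue circles Astrocyte, grey squares Neuron and yellow triangles NSC. Hr and Klf9 are highest and Thrsp lowest in the Oligodendrocyte libraries, and the Oligodendrocyte and Astrocyte libraries overlap for Thrb (23.09 to 26.35 CPM).

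Of 12 genes that answer to glucocorticoids 7 were higher and 5 not called, with a median of 0.51, where 29.1% of all members were higher. Under median-of-ratios or quantile scaling 7 were higher and 2 lower. Fkbp5, a co-chaperone of the glucocorticoid receptor, had 28.63 and 28.83 CPM against 13.39, 11.52 and 12.91, a log2 fold change of 1.13 ± 0.09 (SE). Sgk1, a kinase, Per1, a clock gene, and Tsc22d3, an anti-inflammatory factor, were higher by 1.14, 0.79 and 0.50. Klf9 is on this list as well. Over Neuron, 5 of the 12 were higher in Oligodendrocyte, 5 lower and 2 not called, and in Astrocyte none was higher, 8 were lower and 4 not called. Of all members 44.8% were higher and 23.2% lower in Oligodendrocyte than in Neuron, and 41.3% and 21.5% in Astrocyte. Sgk1 and Tsc22d3 had Neuron means of 74 ± 6.51 and 48.3 ± 6.37 CPM (SD, n = 3), with log2 fold changes over Neuron of -0.20 and -0.25. Of 8 retinoid genes, 2 were higher and 5 lower. Aldh1a1, which makes retinoic acid, had 36.61 and 29.44 CPM against 6.36, 7.65 and 10.3, a log2 fold change of 1.92 ± 0.15 (SE), and was at 0.313 ± 0.0751 CPM in Neuron (SD, n = 3). The receptors divided, with Rara lower by 0.94, Rarg lower by 0.44 and Rarb higher by 0.44. Without Oligodendrocyte replicate 1 the value for Rarb was 0.29 and no longer called (adjusted p = 0.065).

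Antioxidant genes were higher in the oligodendrocyte medium than in either other day 4 medium. Of 13 members, 10 were higher, none lower and 3 not called, with a median of 0.92. Srxn1, which repairs oxidised peroxiredoxins, had 1091.53 and 1018.73 CPM against 114.91, 135.53 and 122.21, a difference of 3.08 ± 0.08 on the log2 scale (SE; adjusted p = 2.1e-11). Slc7a11, the cystine importer that feeds glutathione synthesis, had 262.75 and 206.65 CPM against 31.05, 35.79 and 35.06, a difference of 2.75 ± 0.16 on the log2 scale (SE; adjusted p = 2.0e-08). Txnrd1, thioredoxin reductase, and Gclm, a subunit of the enzyme that starts glutathione synthesis, were higher by 2.13 and 1.52. In each of these 4 genes the libraries did not overlap, as in 72.4% of all members.

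The 3 members not called were the metallothioneins Mt1, Mt2 and Mt3, which bind zinc and copper. Mt1 had 1184 and 997.6 CPM against 993.29 to 1110.63, and Mt2 had 737.78 and 618.21 against 615.61 to 694.15, so their groups overlapped. Over Neuron, 12 of the 13 members were higher in Oligodendrocyte (median 1.68) and 10 in Astrocyte (median 0.51), where the medians over all members were 0.16 and 0.12. Of all members 44.8% were higher than in Neuron in Oligodendrocyte and 41.3% in Astrocyte. Srxn1 was higher than in Neuron by 4.87 in Oligodendrocyte.

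Genes of the ATF4 and amino acid response were higher as well. Of 15 members, 10 were higher, 2 lower and 3 not called, with a median of 0.91. Atf5, a stress-response transcription factor, had 266.26 and 324.14 CPM against 50.09, 51.47 and 53.88, a difference of 2.48 ± 0.10 on the log2 scale (SE; adjusted p = 9.6e-10). Asns, asparagine synthetase, had 44.27 and 48.12 CPM against 10.97 to 12.74, a log2 fold change of 1.89 ± 0.08 (SE). Mthfd2, a mitochondrial folate enzyme, and Slc7a5, an importer of large amino acids, were higher by 1.98 and 1.26. Phgdh, the first enzyme of serine synthesis, was lower by 0.44, while Psat1, the next enzyme, was higher by 0.33, or 0.27 and not called without Oligodendrocyte replicate 2 (adjusted p = 0.058).

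Of 10 p53 target genes, 9 were higher and 1 lower, with a median of 0.88. Cdkn1a, the cell cycle inhibitor p21, had 333.77 and 344.08 CPM against 120.62, 110.76 and 103.42, a difference of 1.60 ± 0.08 on the log2 scale (SE; adjusted p = 2.7e-09). Ccng1, cyclin G1, had 834.08 and 883.78 CPM against 302.48 to 336.62, a log2 fold change of 1.40 ± 0.07 (SE). Mdm2, which marks p53 for destruction, was higher by 0.77 and Bbc3, a trigger of cell death, by 0.62. The member that was lower, Sesn1, at -0.47, was chosen after its value was seen. Over Neuron, Cdkn1a and Ccng1 were higher by 2.53 and 1.89.

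The neuron medium, which differs from the oligodendrocyte medium by added T3 alone per the labels, lay on different sides for these groups. For 14 of the 18 called myelin genes, 14 of the 18 called reactive genes and 10 of the 12 called JAK-STAT and interferon genes the Neuron mean was nearer to Oligodendrocyte. For 10 of 10 called antioxidant genes, 11 of 12 called ATF4 genes and 10 of 10 called p53 targets it was nearer to Astrocyte. Among all genes called at 2-fold or more, the Neuron mean was nearer to Astrocyte for 394 of the 605 higher genes and for 204 of the 455 lower ones. For 215 of the higher genes Neuron lay beyond Astrocyte, and for 119 of the lower genes beyond Oligodendrocyte. The list counts took called members of any size, so they are not matched to these 2-fold counts. A matching share over all called genes was not computed. The comparisons with Neuron share the Oligodendrocyte or the Astrocyte libraries with the main one and called 68% (Oligodendrocyte) and 62.8% (Astrocyte) of the members.

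**Figure D5:**
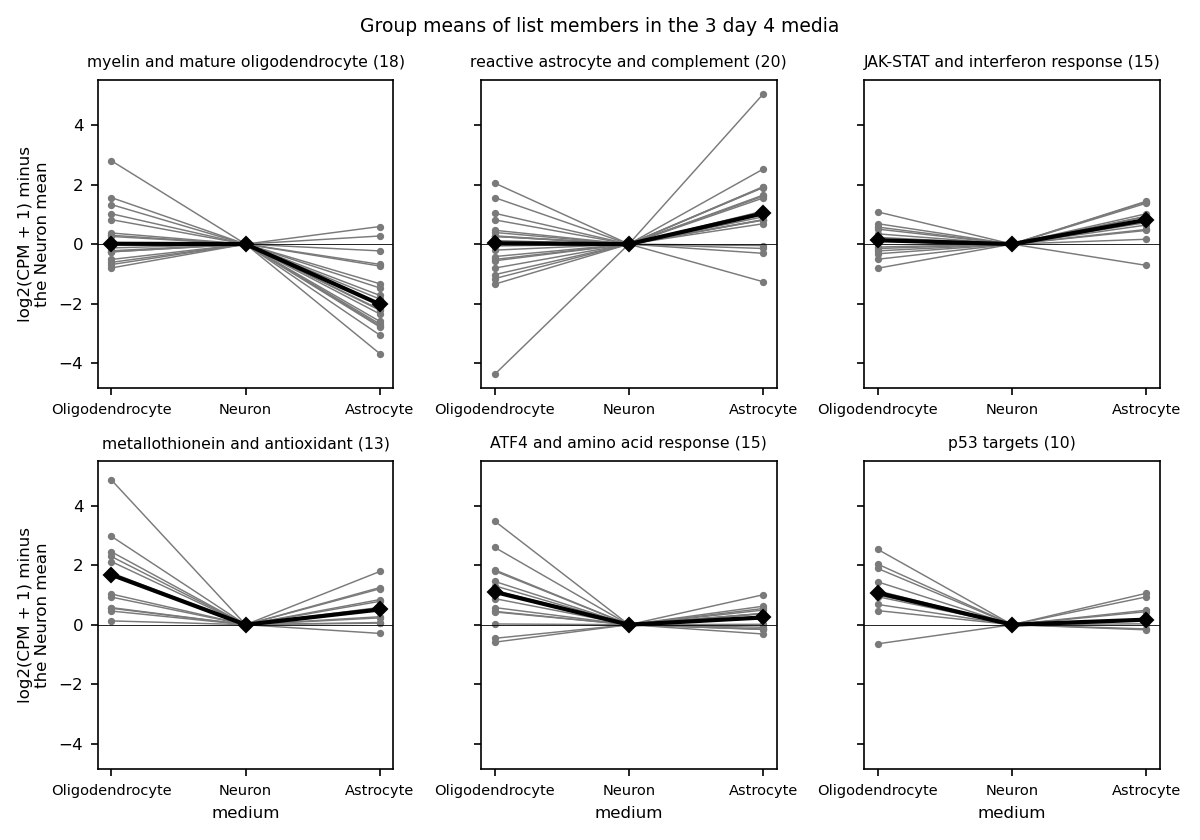
Group means of the members of 6 gene lists in the 3 day 4 media, as log2(CPM + 1) minus the gene's Neuron mean. Each grey line is a gene and the black line with diamonds the list's median. The medians in the top row leave 0 mainly in Astrocyte (-2.02 for myelin, 1.03 for reactive genes) and those in the bottom row mainly in Oligodendrocyte (1.68 for antioxidant genes, 1.10 for ATF4 genes and 1.07 for p53 targets).

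Lipid genes were described by 3 lists. On the fatty acid list 9 of 14 members were lower, 2 higher and 3 not called, with a median of -0.53. Beside Thrsp, Gpam, which starts glycerolipid synthesis, had 271.69 and 248.73 CPM against 660.12 to 734.36, a log2 fold change of -1.41 ± 0.08 (SE). Srebf1, a master regulator of fatty acid synthesis, the desaturase Fads2 and fatty acid synthase Fasn were lower by 0.97, 0.78 and 0.72. Cholesterol synthesis genes were divided, with 6 of 18 higher, 5 lower and 7 not called (5 higher and 8 lower under quantile normalization). No member changed by 2-fold, where 8.18% of all members were called at 2-fold or more. Mvk, an enzyme of the pathway, was higher by 0.79, and Fdft1 and Stard4 were lower by 0.47 and 0.62. On the list of cholesterol efflux and LXR targets 5 of 9 members were lower, 2 higher and 2 not called, with a median of -0.42. Apoe, the lipid carrier secreted by astrocytes, had 1886.25 and 1647.64 CPM against 5224.17, 5541 and 5667.25, a log2 fold change of -1.63 ± 0.12 (SE). The cholesterol exporter Abca1 was lower by 0.64, and its relative Abcg1 was higher by 1.09 at 2.43 and 2.84 against 0.46 to 0.84 CPM.

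Contractile and immediate early genes were lower in part. Of 11 serum response and contractile members, 5 were lower, 3 higher and 3 not called, against 24% lower and 29.1% higher over all members. Acta2, smooth muscle actin, had 8.85 and 10.86 CPM against 39.47, 39.1 and 47.45, a log2 fold change of -1.99 ± 0.15 (SE), and Myl9, a myosin light chain, was lower by 1.09, while Thbs1, a secreted matrix protein, was higher by 0.49. Thbs1 was at 0.40 and not called without Oligodendrocyte replicate 2 (adjusted p = 0.12). Of 10 immediate early genes, 5 were lower, 2 higher and 3 not called. Fos and Junb, subunits of the AP-1 factor, had 15.08 and 14.28 against 42.27 to 56.4 CPM and 2.63 and 3.27 against 14.15 to 15.26 CPM, log2 fold changes of -1.64 and -1.99. Arc, a synaptic member of the list chosen after its value was seen, was higher by 1.23.

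Interneuron genes were lower. Of 10 members of the ventral GABAergic list, none was higher, 9 were lower and 1 was not called, with a median of -1.13. Dlx1, a homeobox factor of cortical interneurons, had 11.98 and 9.5 CPM against 40.89, 40.92 and 54.54, a log2 fold change of -1.98 ± 0.15 (SE). Gad1, which makes GABA, had 9.63 and 7.43 CPM against 19.65 to 25.12, a log2 fold change of -1.31. General neuron genes did not follow as a group, with 4 of 11 lower, 2 higher and 5 not called. Dcx, a microtubule protein of migrating neurons, had 85.17 and 88.06 CPM against 113.38, 119.68 and 141.25 (log2 fold change -0.52, adjusted p = 0.026), and its call was lost without Oligodendrocyte replicate 1, Oligodendrocyte replicate 2 or Astrocyte replicate 3 (-0.49, -0.54 and -0.42, adjusted p from 0.087 to 0.12). Elavl3, an RNA-binding protein, was higher by 1.98 and Tubb3 was not called. Of 3 dorsal glutamatergic members, 1 was higher, 1 lower and 1 not called, and Neurod2, Neurod6 and Tbr1 were under 0.25 CPM in all 5 libraries.

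Among 12 progenitor genes 7 were lower, 3 higher and 2 not called. Nes, the progenitor intermediate filament, had 411.35 and 426.81 CPM against 188.55, 188.78 and 218.97, a log2 fold change of 1.08 ± 0.09 (SE), and was far below the NSC mean of 1251 ± 4.3 CPM (SD, n = 3). Pax6, a progenitor transcription factor, was lower by 1.15, and the filament gene Vim was lower by 0.94. Proliferation genes divided, with 7 of 17 higher, 3 lower and 7 not called, against 29.1% higher and 24% lower over all members. Ccnd1, cyclin D1, was higher by 1.21 and its relative Ccnd2 was lower by 0.74. The replication helicase subunits Mcm2 and Mcm5 were higher by 0.88 and 0.85, with 25.55 and 25.53 against 12.86 to 13.84 CPM for Mcm2, and Mki67 and Top2a were not called (0.38 and 0.26).

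Of 19 voltage-gated channel genes, 9 were higher, 2 lower and 8 not called, against 29.1% higher and 24% lower over all members. Beside Kcna1 and Hcn2, the calcium channel gene Cacna1d had 10.59 and 11.52 CPM against 2.13 to 2.55, a log2 fold change of 1.88 ± 0.16 (SE). Kcna2, a partner of Kcna1 in axons, had 45.33 and 49.89 CPM against 31.01, 25.56 and 19.94. Its log2 fold change of 0.90 had an adjusted p of 0.04, and the call was lost without either Oligodendrocyte library or Astrocyte replicate 2 or 3 (0.74 to 0.96, adjusted p from 0.075 to 0.17). Kcna6, of the same subfamily, was lower by 0.55. Among the 12 Arf exchange factors Iqsec3 stood alone in size. Of the other 11, 4 were higher, 4 lower and 3 not called. Under median-of-ratios or quantile scaling the 12 held 4 higher and 5 lower genes. Cyth1 was higher by 0.73, Iqsec2 was lower by 0.70 and Iqsec1 was not called (-0.25). Without Astrocyte replicate 3 Iqsec1 was called, at -0.33 (adjusted p = 0.024).

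Among adenosine and purine genes, of 14 members 3 were higher, 7 lower and 4 not called. Nt5e, the surface enzyme that makes adenosine from AMP, had 20.73 and 18 CPM against 2.48, 2.45 and 2.45, a difference of 2.55 ± 0.10 on the log2 scale (SE; adjusted p = 3.5e-10). Entpd2, a surface enzyme that degrades ATP, had 2.82 and 1.91 CPM against 12.7 to 16.83, a log2 fold change of -2.23. Adora2b, an adenosine receptor, was lower by 1.96. Adk, adenosine kinase, was lower by 0.83.

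Matrix genes divided, with 7 of 15 higher, 6 lower and 2 not called. Tnr, tenascin R of perineuronal nets and oligodendrocyte precursors, had 425.72 and 500.28 CPM against 128.94, 108.55 and 77.21, a log2 fold change of 2.16 ± 0.37 (SE). Fibronectin (Fn1) and the basement membrane collagens Col4a1 and Col4a2 were higher by 1.09, 0.79 and 0.66. Sparcl1, a synapse-promoting protein of astrocytes, was lower by 1.29. Of 13 hypoxia and glycolysis genes 7 were higher and 4 lower (5 and 5 under quantile normalization), all within 2-fold but Ndrg1. The glucose transporter Slc2a1 was lower by 0.55 and the glycolytic enzyme Aldoa higher by 0.45. Of 7 osmotic response genes 3 were higher and 3 lower (3 and 4 under quantile normalization). Slc5a3, the inositol importer, had 39.3 and 38.47 CPM against 199.17, 149.92 and 132.29 (adjusted p = 6.1e-08), Slc38a2 was lower by 1.29, and Nfat5, their regulator in salt stress, was not called (-0.48). Without Astrocyte replicate 3 Nfat5 was called, at -0.63 (adjusted p = 0.04).

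Markers of other cell types were listed near 0 with a few exceptions. A 0 in this table can also stand for a gene that was not quantified, since Hmgcs1, a cholesterol synthesis enzyme that cells in general use, is listed at 0 in all 11 libraries. Of 9 microglia genes, P2ry12 alone reached the minimum, at 0.74 to 1.29 CPM, 4 were listed at 0 in all 5 libraries, and the list summed to 0.84 to 1.32 CPM. Of 7 fibroblast and pericyte genes 2 were members. Pdgfrb had 10.02 and 7.62 CPM against 41.64 to 42.39, a log2 fold change of -2.14 ± 0.11 (SE), while the collagen genes Col1a1, Col1a2 and Col3a1 were at 0.36 CPM or less in all 5 libraries. The list's sum of 8.36 and 10.4 CPM in Oligodendrocyte against 42.9 to 43.8 in Astrocyte was nearly all Pdgfrb. Of 6 endothelial genes only Kdr was a member, lower by 0.93, and Cdh5 was listed at 0 in all 5 libraries.

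Ependymal genes were lower in 5 of 5 members. Foxj1, the regulator of motile cilia, had 135.32 and 130.93 CPM against 213.17, 223.97 and 231.01, a log2 fold change of -0.74 ± 0.10 (SE), and Rsph1, a ciliary protein, was lower by 0.89. The list summed to 139 and 147 CPM in Oligodendrocyte and 235 to 258 CPM in Astrocyte, while the choroid plexus gene Ttr was at 0.1 CPM or less. Whether these cells had a part in the astrocyte and complement differences was not tested. Of 9 mitochondrially encoded genes 1, mt-Cytb, was lower (-0.42) and 8 were not called, with a list median of -0.22 that was 0.05 under quantile normalization. Its call was lost without any library but Astrocyte replicate 1 (-0.46 to -0.37, adjusted p from 0.074 to 0.14). Of 5 sex-linked genes 1, Uty, was lower (-0.25), and 4 were not called. The call of Uty was lost without Oligodendrocyte replicate 2, Astrocyte replicate 1 or Astrocyte replicate 2 (-0.24 to -0.19, adjusted p from 0.057 to 0.17). Both Xist and Y-linked RNA were present in all 5 libraries.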

How the data were processed

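The authors deposited CPM values of 37991 genes in 11 libraries, rounded to 2 decimals, 1 column per library, per the file headers. The table is labelled mm9. The submitters' processing notes name bcl2fastq 1.8.4, TopHat2 2.0.8, HTSeq 0.6.1, edgeR 3.2.4, R 3.0.0, HOMER and build NCBIM37, without the role of each. Whether the counting used strand is not given in the sources used here. The listed genes hold 79.7% to 80.2% of the CPM total in the 5 libraries compared.

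Values were put on the scale log2(CPM + 1). The 13342 genes reaching 1 CPM in 2 or more of 11 libraries were fitted with limma 3.58.1 in R 4.3.3, 1 mean per group over all 11 libraries and a trend of variance on level (residual df 7, prior df 5.96). Two-sided p-values received Benjamini-Hochberg adjustment over all 13342 genes, and calls needed an adjusted value under 0.05. Every adjusted p printed for a gene is from this limma fit, unless a left-out library is named. In that case it is from the same model refitted without that library. CPM are not counts, so no count model was used.

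The genes named are the 12 highest and 12 lowest called genes with at least 10 CPM in a group mean and no overlap; up to 4 of the largest called members, and the first 3 as written, of each of 34 gene lists; the highest and lowest called of 20 gene families; and 5 leading genes. The largest list members and the family genes also needed at least 10 CPM in a group mean. Other names are marked, apart from marker genes named for being near 0. Some genes that the rule names are not reported here. The members, lists and rules were chosen with earlier results of these data known, so no list's direction is independent support. Alternatives changed the pseudocount, filter, scaling, libraries fitted, trend and replicate block and left out each library in turn.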

Additional observations from a re-analysis of the deposited data

How the results depend on the processing

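The count of called genes stayed within 1.5 times of 6880 under all 16 alternatives, from 4961 (without Oligodendrocyte replicate 2) to 7340 (fitted on the 5 libraries only). Counts at 2-fold or more depend on the pseudocount. With a pseudocount of 5 they were 595 in all, 365 higher and 230 lower, and with 0.1 there were 700 lower, because a larger pseudocount shrinks the fold change of low genes. The counts of genes called, and of those called at 2-fold, moved by under 1.5 times in every other setting. Median-of-ratios and quantile scaling took the median log2 fold change of all members from 0.04 to 0.01 and -0.01, and the share of calls that were higher from 54.88% to 49.79% and 47.7%. The cause was not tested. All alternatives were run for Oligodendrocyte against Astrocyte only, so how the comparisons with Neuron depend on scaling was not tested. The median-of-ratios size factors were 1.09 and 1.06 in Oligodendrocyte, 1.03 to 1.08 in Astrocyte and 0.95 to 1.00 in Neuron. Of the named genes not called, 5 changed sign when 1 library was left out. Over these 5 omissions Thrb ranged from -0.0727 to 0.0399, Mt1 from -0.0822 to 0.165, Mt2 from -0.0724 to 0.182, Xist from -0.0005 to 0.31 and Tubb3 from -0.0302 to 0.411, the last called without Astrocyte replicate 3 (adjusted p = 0.024). Other named genes that were not called gained a call in some settings. These were Iqsec1 and Stat2 under both scalings, Nfat5 and Pdgfra under quantile scaling and Nfat5 with the replicate block. Fitted on the 5 libraries only, Iqsec1, Stat2, Nfat5, Mt3, Top2a and Mki67 gained one. Over the 16 alternatives the 142 named genes gave 2219 unchanged results, 27 lost calls, 16 gained calls and 8 changes of sign. Calls were also lost with all libraries kept, as for mt-Cytb under median-of-ratios scaling. Of the list medians, 421 stayed within the SD between replicate libraries for that list and 91 moved by at least that SD.

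With the replicate number as a block, 6718 genes were called, 6536 of them called without it, and 1035 of the 1060 called at 2-fold remained. The labels tie the numbers to no shared batch. The deviations of same-numbered Oligodendrocyte and Astrocyte libraries correlated at 0.21 and 0.14 across genes, but with 2 such pairs, and with same-numbered pairs of other groups as low as -0.51, the numbers were not taken to pair the libraries.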

Other observations

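Families taken by their gene symbols differed in how many members were called. Of all members 53.1% were called, 29.1% higher and 24% lower. Of 74 cytoplasmic ribosomal protein genes 21 were higher in Oligodendrocyte (10 under quantile normalization and 38 fitted on the 5 libraries only), none was lower and none reached 2-fold, with a median of 0.21. The 28.38% of these genes called, all higher, lay near the 29.1% of all members that were higher. Ribosomal protein genes have near-identical copies in the genome, among which reads can be shared. Rps27l, a ribosomal protein relative, had the largest log2 fold change of those with at least 10 CPM (0.85). Of 41 nuclear genes of respiratory complex I, 20 were higher and 1, Ndufc2, was lower (-0.73), against 11 higher and 3 lower under quantile normalization. Of 337 zinc finger genes 44 were higher and 70 lower, and Zfp536 had the largest rise, with 21.22 and 25.64 CPM against 1.75 to 2.37, a log2 fold change of 3.00 ± 0.16 (SE).

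Of 26 collagen genes 25 were called, 11 higher and 14 lower. Col8a1 and Col8a2, chains that assemble into the same type of collagen, lay at opposite ends. Col8a1 had 17.18 and 18.16 CPM in Oligodendrocyte against 4.99 to 6.67 in Astrocyte, and Col8a2 had 1.09 and 1.12 against 8.78 to 11.71 CPM, log2 fold changes of 1.43 and -2.43. Among 27 semaphorin and plexin genes 10 were higher, 7 of them by 2-fold or more, and 9 were lower, none by 2-fold. Of all members 4.67% were higher and 3.51% lower by 2-fold or more. Sema5a had 199.29 and 232.37 CPM against 35.82 to 50.53, a log2 fold change of 2.31. Of 45 potassium channel genes 18 were higher and 14 lower, with Kcns1, a modifier subunit, at 1.51 and 1.45 against 14.26 to 17.39 CPM (log2 fold change -2.75). Of 224 solute carrier genes 95 were higher and 57 lower. Of 10 guanylate-binding and interferon-induced genes 7 were lower and none was higher.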
